A study of Mus musculus with 3 samples.

Results

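TBX5 peaks at the ends of long non-coding RNA (lncRNA) genes, away from protein-coding genes, were described in the lung of mouse embryos at E14.5. A peak was counted when its summit, the base of highest signal, was at most 1 kb from either end of a RefSeq lncRNA gene. It also had to lie outside every protein-coding gene and over 1 kb from every protein-coding gene end. These criteria were met by 741 of 28381 peaks, 2.61% of the list, and the peaks lay at the ends of 680 lncRNA genes. The remaining peaks were 4981 within 1 kb of a protein-coding gene end, 11753 inside protein-coding genes and 10906 in other intergenic sequence.

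The peaks came from chromatin immunoprecipitation and sequencing (ChIP-seq) with an antibody to TBX5 in CD-1 embryos, with 2 ChIP libraries of 1 whole lung each and 1 input library. All libraries are represented by a single peak list, so neither the spread between the ChIP libraries nor their depth could be measured. Peaks are not replicates of one another, so shares and medians carry 95% intervals for counting error only and no p-value is given. Lung is the tissue in all titles and in the protocol, while the source entry of ChIP library 2 and of the input reads heart, and a peak list holds no marker expression with which to check the tissue. A whole lung mixes mesenchyme, epithelium, vessels and other cells, and a peak does not tell in which of them TBX5 was bound.

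TBX5 is a T-box transcription factor that acts in the heart, the forelimb and the lung mesenchyme, where with its relative TBX4 it drives bud formation and airway branching. T-box proteins bind the letters AGGTGTGA and variants of them at promoters and enhancers. Many lncRNA genes start within or beside regulatory elements. Some lncRNA transcripts act on a neighbouring gene or serve as precursors of small RNAs, and for others the act of transcription or the underlying DNA element matters rather than the RNA.

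Windows around lncRNA starts, from 250 bases before to 50 bases after the start, were read from RefSeq (GRCm38.p6, the assembly of build mm10) in the direction of transcription. A summit fell inside this window at 97 lncRNA starts, and the highest peak at each of the 97 met the criteria above. The first set shows the CpG-poor windows (the definition is given with the CpG results) whose summits had the highest −log10 q. They are from Gm31344 (chr1:73363656-73363955, plus strand), Gm34637 (chr12:12669868-12670167, minus strand) and Gm30338 (chr11:121794680-121794979, plus strand). Capitals mark the bases within 15 of the summit.
Gm31344: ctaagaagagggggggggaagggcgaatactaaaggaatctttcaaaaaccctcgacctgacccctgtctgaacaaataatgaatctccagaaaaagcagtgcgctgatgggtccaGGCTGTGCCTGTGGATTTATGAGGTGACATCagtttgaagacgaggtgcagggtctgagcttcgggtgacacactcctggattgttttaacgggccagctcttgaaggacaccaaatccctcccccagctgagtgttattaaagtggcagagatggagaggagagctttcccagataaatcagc
Gm34637: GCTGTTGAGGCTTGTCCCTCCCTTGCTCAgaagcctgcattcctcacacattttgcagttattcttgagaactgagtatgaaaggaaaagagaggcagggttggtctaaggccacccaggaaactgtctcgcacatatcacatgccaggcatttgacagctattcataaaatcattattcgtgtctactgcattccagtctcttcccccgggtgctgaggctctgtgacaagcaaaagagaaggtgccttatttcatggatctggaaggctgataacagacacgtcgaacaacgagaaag
Gm30338: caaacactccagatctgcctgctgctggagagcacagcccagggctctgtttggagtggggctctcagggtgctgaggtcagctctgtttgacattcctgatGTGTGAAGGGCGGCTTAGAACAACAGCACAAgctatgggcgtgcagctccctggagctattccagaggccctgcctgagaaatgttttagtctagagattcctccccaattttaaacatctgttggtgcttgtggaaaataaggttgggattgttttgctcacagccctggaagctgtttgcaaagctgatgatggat
The summits lay 119, 237 and 133 bp before the start and had 47.2-fold, 31.1-fold and 30.4-fold enrichment.

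The second set shows the CpG-poor windows with the next highest −log10 q that hold CAGCTG, an E-box to which basic helix-loop-helix factors bind. They are from Gm46780 (chr2:173290081-173290380, minus strand), Gm51680 (chr9:61033616-61033915, minus strand) and Gm42054 (chr8:124196303-124196602, plus strand). Capitals mark CAGCTG.
Gm46780: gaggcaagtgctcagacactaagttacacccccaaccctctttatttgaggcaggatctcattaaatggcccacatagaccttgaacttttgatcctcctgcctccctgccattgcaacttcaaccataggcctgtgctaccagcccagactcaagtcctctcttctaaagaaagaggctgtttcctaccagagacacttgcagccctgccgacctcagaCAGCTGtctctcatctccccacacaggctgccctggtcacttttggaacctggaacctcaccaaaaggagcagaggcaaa
Gm51680: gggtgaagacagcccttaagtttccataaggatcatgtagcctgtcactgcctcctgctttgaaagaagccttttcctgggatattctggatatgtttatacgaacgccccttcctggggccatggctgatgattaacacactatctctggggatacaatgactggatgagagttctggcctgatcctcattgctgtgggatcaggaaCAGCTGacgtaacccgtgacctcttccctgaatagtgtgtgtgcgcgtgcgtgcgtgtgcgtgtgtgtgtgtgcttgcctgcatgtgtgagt
Gm42054: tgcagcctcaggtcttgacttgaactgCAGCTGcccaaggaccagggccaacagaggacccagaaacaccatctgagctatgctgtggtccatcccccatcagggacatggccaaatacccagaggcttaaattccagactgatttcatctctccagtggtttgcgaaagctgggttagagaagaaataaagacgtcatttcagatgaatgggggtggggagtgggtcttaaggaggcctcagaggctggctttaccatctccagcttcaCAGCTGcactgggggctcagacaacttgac
The enrichment was 19.7-fold, 17.3-fold and 19.4-fold, and the nearest CAGCTG lay 43, 5 and 21 bp from the summit. In the first set Gm31344 also holds CAGCTG, 110 bp from its summit.

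The third set shows CpG-rich windows of well-known lncRNAs, whose CG content can be set against the first. They are from Fendrr (chr8:121083061-121083360), Chaserr (chr7:73558346-73558645) and Dleu2 (chr14:61682324-61682623), all on the minus strand. Capitals mark CG.
Fendrr: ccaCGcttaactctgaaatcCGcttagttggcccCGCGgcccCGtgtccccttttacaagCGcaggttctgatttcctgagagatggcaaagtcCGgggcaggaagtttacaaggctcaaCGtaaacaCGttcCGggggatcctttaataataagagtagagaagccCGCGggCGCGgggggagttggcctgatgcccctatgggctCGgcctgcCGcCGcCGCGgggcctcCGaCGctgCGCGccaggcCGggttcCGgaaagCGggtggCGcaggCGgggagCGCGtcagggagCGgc
Chaserr: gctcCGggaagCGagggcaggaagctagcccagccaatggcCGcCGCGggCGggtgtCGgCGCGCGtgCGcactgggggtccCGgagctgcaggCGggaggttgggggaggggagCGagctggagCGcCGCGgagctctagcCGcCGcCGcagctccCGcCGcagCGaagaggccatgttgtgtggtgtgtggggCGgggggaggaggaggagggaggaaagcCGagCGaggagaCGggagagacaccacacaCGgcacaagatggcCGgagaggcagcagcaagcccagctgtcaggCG
Dleu2: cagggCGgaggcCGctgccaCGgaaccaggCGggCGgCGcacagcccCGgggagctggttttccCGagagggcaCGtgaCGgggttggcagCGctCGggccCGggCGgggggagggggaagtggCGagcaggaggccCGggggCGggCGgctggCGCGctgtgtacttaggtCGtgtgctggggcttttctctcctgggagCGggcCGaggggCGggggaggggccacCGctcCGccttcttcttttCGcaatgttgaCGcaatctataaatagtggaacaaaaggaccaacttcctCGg
These windows hold 31, 30 and 29 CG, against 6, 6 and 2 in the first set. Their peaks had 9.45-fold, 5.41-fold and 6.16-fold enrichment. The first set was chosen for high peaks and the third was not, so the heights of these sets are not compared.

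Peaks gathered at lncRNA starts and much less at the last bases. The strand, and with it the start, was known for 9520 of 12697 RefSeq lncRNA genes and for 503 of the 680 with a peak. Of 5901 lncRNA starts away from protein-coding genes, 328 had a summit within 1 kb (5.56%, interval 4.99 to 6.17). Of 6768 last bases, 204 had one (3.01%, 2.62 to 3.45). Within 250 bp there were 24.7 summits per 1000 starts and 7.68 per 1000 last bases. Per kb, 1000 lncRNA starts had 30.2 summits within 1 kb and 14.7 at 2 to 5 kb, whereas 1000 last bases had 16.7 and 14.4. Stretches of these flanks that run into protein-coding genes hold no counted summits and were not subtracted, which lowers the values at 2 to 5 kb. Last bases were thus close to their own surroundings. Of the 356 summits within 1 kb of a start, 169 lay before it (47.5%, 42.2 to 52.8), so they fell about equally on either side. Of the 226 summits within 1 kb of a last base, 132 lay before it, on the side of the gene (58.4%, 51.7 to 64.9).

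**Figure D1:**
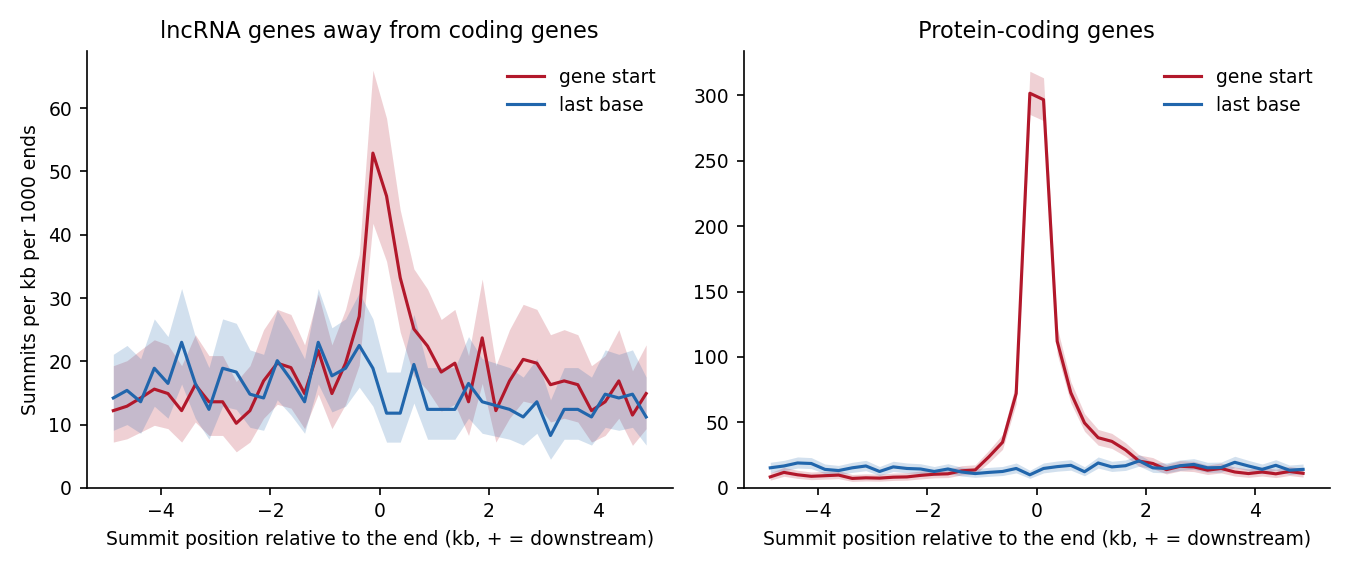
Peak summits around lncRNA gene starts and last bases away from protein-coding genes (left) and around those of protein-coding genes (right), as summits per kb per 1000 ends against distance in kb; lines join bins of 250 bp, shading is the 95% Poisson interval and the vertical scales differ. Both kinds of start carry a peak of summits, higher at protein-coding starts, and the last bases are nearly flat.

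Protein-coding genes showed the same contrast on a larger scale. Of 17249 protein-coding starts, 3623 had a summit within 1 kb (21.0%, 20.4 to 21.6), and of 17247 last bases 428 had one (2.48%, 2.25 to 2.72). A protein-coding start had a summit more often than a lncRNA start, while the intervals for last bases overlap. For strong peaks, the 5000 with the highest −log10 q, the shares were closer, at 1.32% of lncRNA starts (1.05 to 1.65) and 1.65% of protein-coding starts (1.47 to 1.85), and these intervals overlap. At last bases strong peaks were more frequent in lncRNA genes, at 0.754% (0.562 to 0.990) against 0.383% (0.296 to 0.487), and those intervals do not overlap. The lncRNA ends are only those away from protein-coding genes, so the 2 sets differ in position as well as in gene type.

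Over whole genes, 677 of 9367 lncRNA genes with an end away from protein-coding genes had a peak there (7.23%, 6.71 to 7.77). A further 3 genes at these peaks had no end that met the distance criteria, although the summit did. Of all 21631 protein-coding genes, 22.6% had a summit within 1 kb of either end. Among lncRNAs, predicted genes with a Gm symbol had a peak in 523 of 7486 cases (6.99%, 6.42 to 7.59) and Rik genes in 107 of 1362 (7.86%, 6.48 to 9.41). Genes with a LOC symbol had one in 8 of 183 (4.37%, 1.91 to 8.43). Genes with any other symbol, mixing proper names and clone symbols such as AW549542, had one in 39 of 336 (11.6%, 8.39 to 15.5). Genes shorter than 10 kb had one in 7.91% (7.18 to 8.69) and longer ones in 6.45% (5.74 to 7.22), with intervals that meet only at their edges.

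Summit density rose stepwise toward lncRNA ends. In sequence outside and over 1 kb from protein-coding genes, the density was 31.8 summits per Mb (28.1 to 35.9) within 250 bp of a lncRNA end, 22.7 at 250 to 500 bp and 18.5 at 500 to 1000 bp. It was 16.3 at 1 to 2 kb, 13.2 at 2 to 5 kb, 10.5 at 10 to 50 kb and 4.69 beyond 50 kb. Assembly gaps and sequence to which reads cannot be assigned were not subtracted, and distance to protein-coding genes was not held constant. How far either lowers the densities away from lncRNA ends was not tested. The density within 1 kb was 1.74 times that at 2 to 5 kb (1.58 to 1.92), and for strong peaks 1.80 times (1.44 to 2.23). Median enrichment changed little over the same range, from 6.60-fold within 250 bp to 6.27-fold and 6.33-fold in the next bins and 6.60-fold farther out. Distance from a lncRNA end therefore went with the number of peaks and hardly with their height.

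**Figure D2:**
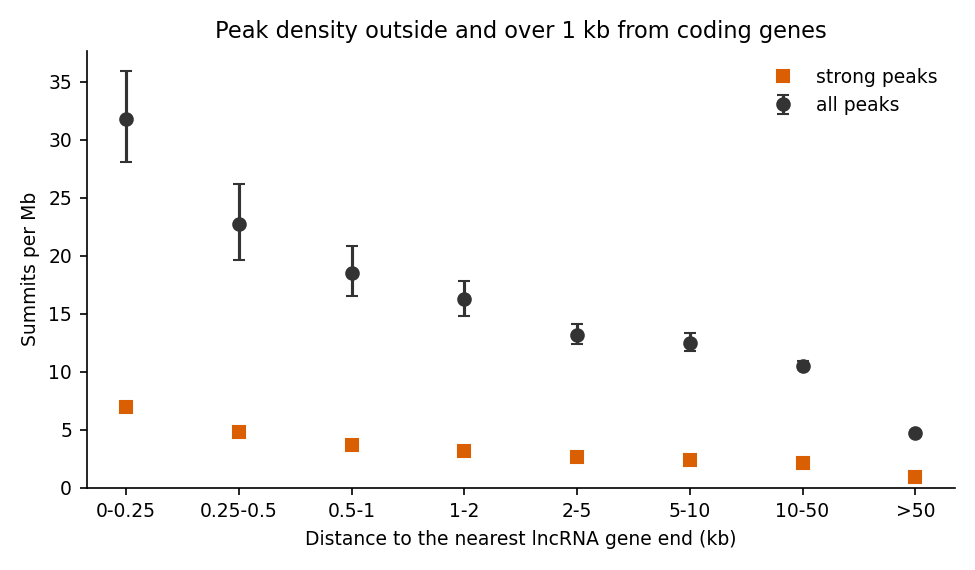
Summits per Mb against distance to the nearest lncRNA gene end in kb, for all peaks (circles, bars are 95% Poisson intervals) and strong peaks (squares), in sequence outside and over 1 kb from protein-coding genes. The density falls from 31.8 within 250 bp to 4.69 beyond 50 kb.

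In height, peaks at lncRNA ends were like other intergenic peaks and unlike those at protein-coding ends. Fold enrichment, the ratio of ChIP signal to a local background that the authors' peak caller gave (whether from the input library was not given in the sources used here), had a median of 6.42 (6.13 to 6.77) with quartiles of 5.10 and 9.71 and a range of 3.03 to 47.2. The median was 5.49 (5.44 to 5.54) at protein-coding ends, 6.59 inside protein-coding genes and 6.60 in other intergenic sequence. On the log2 scale the lncRNA-end median was 0.23 above that of protein-coding ends and differed by -0.04 from other intergenic peaks. Strong peaks made up 17.6% of the whole list, 20.9% of the peaks at lncRNA ends (155 peaks, 18.0 to 24.0), 19.9% of other intergenic peaks and 8.21% of those at protein-coding ends (7.46 to 9.01). The 327 peaks at starts only had a median of 6.16-fold (5.98 to 6.76) and the 201 at last bases only 6.91-fold (6.14 to 7.54), with overlapping intervals. The median of peaks at starts only lay above that of protein-coding ends, although peaks at the few CpG-rich lncRNA starts had a median of 5.54-fold (4.74 to 6.34), close to that of protein-coding ends.

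**Figure D3:**
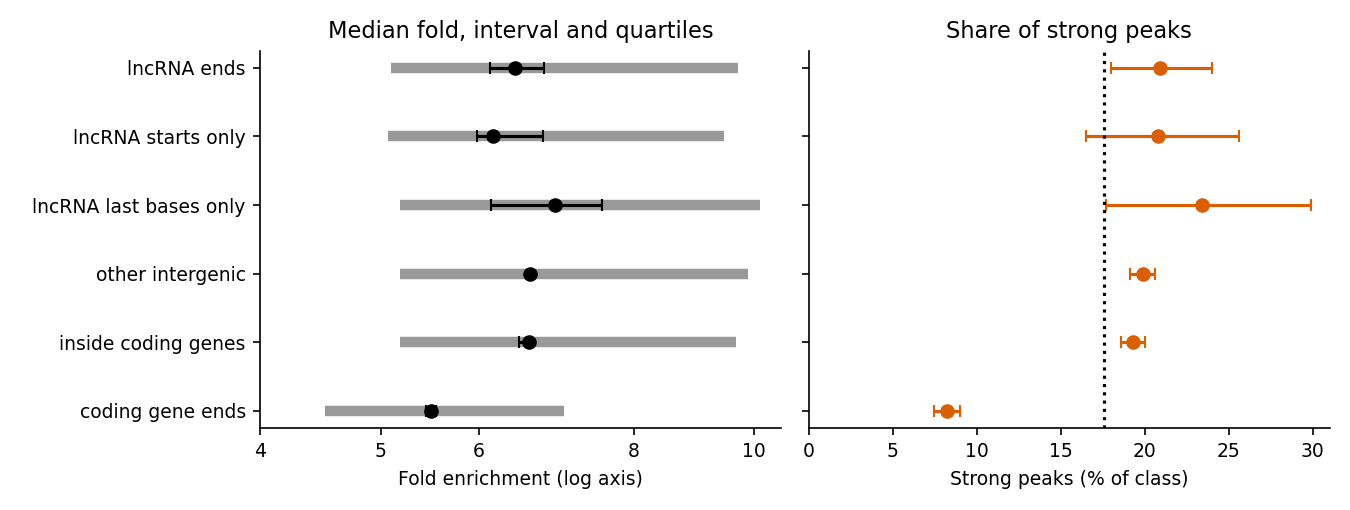
Left, median fold enrichment (points, log axis) with its 95% interval (thin bars) and quartiles (thick grey bars) by position; right, percent of strong peaks with 95% binomial intervals, the dotted line at 17.6% marking the whole list. Peaks at lncRNA ends sit with other intergenic peaks and those inside protein-coding genes, above peaks at protein-coding ends.

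Peaks at lncRNA ends had company more often than other intergenic peaks. Another summit lay within 10 kb of 439 of them (59.2%, 55.6 to 62.8), against 48.6% of other intergenic peaks (47.7 to 49.5). Intergenic peaks inside lncRNA genes but away from their ends had a neighbour in 56.4% (54.1 to 58.6), which overlaps the value at the ends. The peaks at lncRNA ends also lay nearer to protein-coding genes, at a median of 35.4 kb against 63.8 kb. The contrast had the same direction in each of 4 ranges of that distance. At 20 to 100 kb from a protein-coding gene end, 59.6% of peaks at lncRNA ends (53.8 to 65.2) and 49.8% of other intergenic peaks (48.2 to 51.4) had a neighbour, and beyond 100 kb 52.6% (45.3 to 59.8) and 43.3% (41.8 to 44.8). At 1 to 5 kb (73.9% and 60.4%) and 5 to 20 kb (58.6% and 52.9%) the intervals overlapped. Median width was 299 bp against 293 bp, and 28 peaks at lncRNA ends (3.78%, 2.53 to 5.42) were 800 bp or wider, against 2.72% of other intergenic peaks.

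lncRNA starts divided by CpG content, a feature of promoters that are active in many tissues. A window was called CpG-rich when its observed over expected CpG was at least 0.6 and its GC content at least 50%. Windows were used only where their start was the outermost base of the gene. This left 5710 lncRNA starts beside the 5901 above, and 10370 protein-coding starts beside 17249, so more protein-coding starts were left out. Of 5710 such lncRNA starts away from protein-coding genes, 227 were CpG-rich (3.98%), against 4124 of 10370 protein-coding starts (39.8%). A summit lay within 1 kb of 46 of the 227 CpG-rich lncRNA starts (20.3%, 15.2 to 26.1) and of 274 of the 5483 CpG-poor ones (5.00%, 4.44 to 5.61). The same shares at protein-coding starts were 39.5% (38.0 to 41.0) for CpG-rich and 6.44% (5.84 to 7.07) for CpG-poor starts. In each class a lncRNA start had a peak less often than a protein-coding start, and the intervals do not overlap. Over both classes the shares were 5.60% and 19.6%. Protein-coding shares weighted to the CpG mix of the lncRNA starts gave 7.75%.

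Of the 320 lncRNA starts with a summit within 1 kb, 274 were CpG-poor, as were 5483 of all 5710 lncRNA starts. CpG-poor starts were thus the majority in both, and a smaller part of the starts with a peak than of all starts. Peaks at CpG-rich lncRNA starts were lower in median and less often strong, with intervals that overlap those at CpG-poor starts. Median enrichment was 6.61-fold (6.13 to 7.49) at CpG-poor and 5.54-fold (4.74 to 6.34) at CpG-rich lncRNA starts, and strong peaks made up 25.0% (19.9 to 30.6) and 10.9% (3.62 to 23.6). These intervals overlap, which does not show that the classes are alike, and only 5 strong peaks lay at CpG-rich lncRNA starts. With the summit in the window itself the medians were 7.54-fold (6.01 to 8.48) and 6.31-fold (4.95 to 8.63), and 26% (16.5 to 37.6) and 20.8% (7.13 to 42.2) were strong. Of the 97 lncRNA windows with a summit inside, 24 were CpG-rich (24.7%, 16.5 to 34.5), against 949 of 1091 protein-coding windows (87.0%, 84.8 to 88.9). With or without a summit, 3.98% of the lncRNA and 39.8% of the protein-coding windows were CpG-rich. At lncRNA starts inside or within 1 kb of protein-coding genes, which are outside the set described here, 200 of 235 windows with a summit inside were CpG-rich (85.1%, 79.9 to 89.4).

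**Figure D4:**
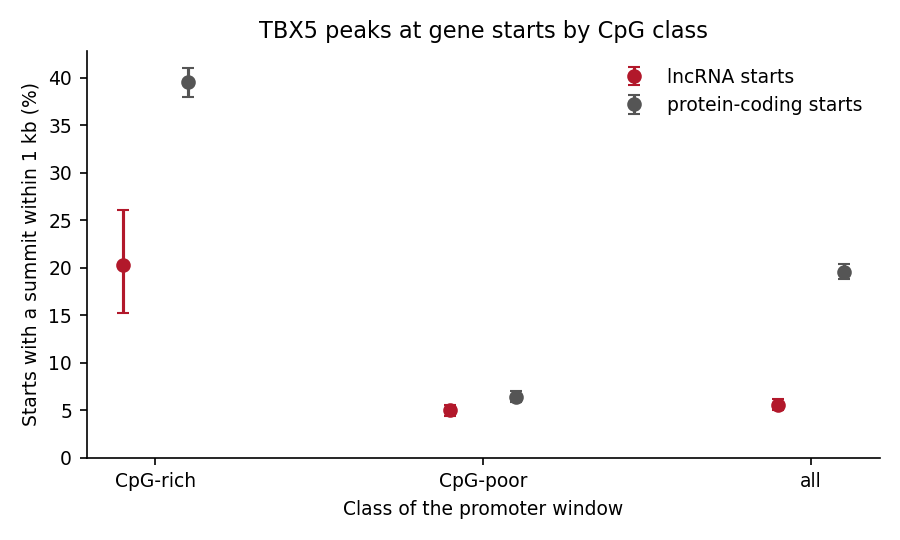
Percent of lncRNA starts away from protein-coding genes (red) and of protein-coding starts (grey) with a summit within 1 kb, by CpG class of the promoter window and over all windows; bars are 95% binomial intervals. CpG-rich starts have a peak more often in both gene types, and lncRNA starts less often than protein-coding starts in each class.

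The T-box letters were not more frequent in the windows with a summit. AGGTGTG or GGTGTGA, the first and last 7 letters of AGGTGTGA, were searched on both strands and overlap each other. The full AGGTGTGA was in none of the 97 windows (up to 3.73%) and in 1.56% of lncRNA windows with no summit within 1 kb. One or both of the shorter forms stood in 7 of the 97 windows (7.22%, 2.95 to 14.3), in 10.5% of the lncRNA windows with no summit within 1 kb (9.68 to 11.3), and in 8.88% of all 19601 promoter windows. None of the 24 windows with a strong summit held them, which with 24 windows allows a share of up to 14.2%. In the 7 windows the letters lay at a median of 75 bp from the summit, and within 50 bp in 2. A match is a description of the sequence, and no match says only that these letters are not in this window.

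CAGCTG was the most frequent of the 13 motifs searched in these 97 windows, and it was picked out after its values were seen. It stood on at least 1 strand in 33 of them (34.0%, 24.7 to 44.3), in 22.9% of the windows with a summit nearby but outside (17.5 to 28.9), in 17.1% of those with none within 1 kb (16.1 to 18.1) and in 16.2% of all promoter windows. Among CpG-poor windows the shares were 30 of 73 with a summit (41.1%, 29.7 to 53.2) and 17.2% without (16.2 to 18.3). At CpG-poor starts of lncRNAs inside or near protein-coding genes, which share no window with these, 13 of 35 with a summit held it (37.1%, 21.5 to 55.1) and 19.3% of those without (17.7 to 20.9). At CpG-poor protein-coding starts the shares were 23.2% (16.6 to 31.1) and 15.5%. GC content was not held constant in these pairs. Its median in CpG-poor windows was 50.7% with a summit and 46.7% without at the lncRNA starts away from protein-coding genes. It was 50.7% and 48.7% for lncRNAs inside or near protein-coding genes, and 55.3% and 47.0% at protein-coding starts. Whether GC content bears on the CAGCTG shares was not tested. CAGCTG was not nearer to the summit than elsewhere in the CpG-poor lncRNA windows, with 1.49 matches per kb within 50 bp (0.713 to 2.74) and 1.89 beyond (1.26 to 2.73). In the CpG-poor protein-coding windows with a summit it was nearer, with 1.71 matches per kb within 50 bp (1.07 to 2.58) and 0.655 beyond (0.394 to 1.02), and these intervals do not overlap. Among windows with a strong summit it stood in 6 of 24 (25.0%, 9.77 to 46.7), an interval that includes the share in all promoter windows.

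Of the other letters searched, GGGCGG, to which SP and KLF factors bind, was more and TGANTCA, the AP-1 letters, less frequent in lncRNA windows with a summit than in those without, but within the CpG-poor class the intervals overlapped for both. GGGCGG stood in 30.9% of the 97 windows (21.9 to 41.1), 8.70% of lncRNA windows with no summit within 1 kb and 29.8% of all promoter windows. Among CpG-poor windows it stood in 12.3% with a summit (5.80 to 22.1) and 7.20% without (6.51 to 7.93). Among CpG-rich windows it stood in 21 of 24 with a summit (87.5%, 67.6 to 97.3), against 56.4% of all CpG-rich lncRNA starts (49.7 to 62.9), which include those 24. TGANTCA stood in 4.12% of the 97 windows (1.13 to 10.2) and 11.1% of lncRNA windows without a summit (10.3 to 12.0). Among CpG-poor windows the shares were 5.48% (1.51 to 13.4) and 11.3% (10.5 to 12.2), and it stood in none of the 24 CpG-rich windows with a summit, which allows up to 14.2%, against 5.29% of all CpG-rich lncRNA starts. For AGATAA of GATA factors (10.3% against 16.1%) and GGAATG of TEAD factors (23.7% against 17.6%) the intervals overlapped.

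All but 1 of the 10 highest peaks at lncRNA ends lay at predicted genes with a Gm symbol, and the exception was AW549542. Most lncRNA genes carry such a symbol, 7486 of the 9367 eligible genes and 523 of the 677 with a peak. The count among the highest 10 is therefore no trait of high peaks. The highest by −log10 q was at the start of Gm31344 (chr1:73363441-73364451, 47.2-fold, −log10 q 200.1), 347.9 kb from the nearest protein-coding end, that of Tnp1, and it ranked 59 in the whole list. The peak at Gm38896 (chr6:124919504-124920834, 27.5-fold) was 1331 bp wide, lay within 1 kb of both ends of that gene and was 2.23 kb from Ptms. Next came Gm34112 (chr2:169494544-169495278, 42.7-fold), 137.5 kb from Tshz2, and Gm4544 (chr15:102657871-102658332, 45.7-fold), 4.76 kb from Atp5g2.

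The other peaks of the highest 10 lay 21.1 to 277.9 kb from the nearest protein-coding gene. Gm30088 (40.4-fold) lay 21.1 kb from Cenpf and Gm41673 (44.3-fold) 277.9 kb from Chst9. AW549542 (chr5:119569966-119570614, 34.9-fold) lay 100.2 kb from Tbx3, a T-box repressor of the lung mesenchyme. Gm33323 (43.3-fold, at the last base) lay 158.2 kb from Wdr11. Gm30252 (chr16:44615801-44617374, 38.8-fold, 1574 bp wide) lay 57.7 kb from Boc, a co-receptor for hedgehog ligands. Gm51985 (38.4-fold) lay 86.1 kb from Rad51b. The nearest gene on the chromosome is a matter of position and need not be the gene on which an element acts.

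Several peaks stood at the ends of 82 of the 677 lncRNA genes, 3 or more at 11 of them. Genes with 2 peaks were not described as a group, and some of their peaks were strong. The runs of 3 or more were mostly weak peaks close together at a short gene or at a single end. 1700012D01Rik had 4 peaks of 7.17, 6.27, 5.08 and 4.89-fold within 1 kb of its ends, 1.03 to 2.74 kb from Nab2. Gm34157, 1.95 to 4.06 kb from the co-repressor gene Tle3, had a peak of 18.5-fold and 2 of 6.01 and 3.92-fold. Gm41387, near the planar polarity gene Prickle1, had 10.4-fold on its first base and 6.13 and 5.18-fold at its last base. Gm29328 and Gm36260 overlap and share their 3 peaks of 9.89, 5.65 and 3.26-fold, so these are 3 peaks and not 6. In Gm31125, Gm34301, Gm40040, LOC115490435 and 9330117O12Rik the enrichment was 3.03 to 8.95-fold. In all, 33 peaks lay at the ends of 2 lncRNA genes and 708 at 1.

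A list of 128 lncRNAs held mainly well-known ones, with some under Gm or Rik symbols, such as Gm16063 and 2610307P16Rik. Of the 128, 90 were lncRNA genes in RefSeq and 73 of these had an end away from protein-coding genes. A peak lay at such an end in 18 of the 73 (24.7%, 15.3 to 36.1), against 7.23% of all such lncRNA genes. With 2 more whose own ends lay nearer to a protein-coding gene, 20 listed lncRNAs had 26 peaks of 4.26 to 17.9-fold (median 6.01), and 3 of these were strong. The list was made with results of these data known and holds many genes that are well studied, so its share describes these genes only.

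Among imprinted lncRNAs, Mirg, the maternally expressed host of a miRNA cluster, had 3 peaks at its last base with 17.9, 10.6 and 5.58-fold enrichment, 2 of them strong. Meg3 and Rian, which lie before Mirg in the same imprinted domain, had no peak inside them or within 1 kb. H19, a maternally expressed growth-restraining RNA, had peaks of 9.41-fold (chr7:142577958-142578462) and 5.08-fold. Beside transcription factor genes, Fendrr had a peak of 9.45-fold (chr8:121083047-121083374) 77 bp before its start. Fendrr is needed for heart and body wall development in the mouse, and this peak lay 1.20 kb from an end of Foxf1, a hedgehog target in lung mesenchyme that is transcribed in the opposite direction. Hotairm1 and Hoxaas2 of the Hoxa cluster had 9.11 and 8.10-fold, with 10 and 15 other summits within 10 kb. Gm16063, 44.1 and 44.6 kb from Tbx3, had 8.40 and 5.54-fold.

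Nuclear architectural RNAs also had peaks. Neat1, the scaffold of paraspeckles, had a strong peak of 9.89-fold (chr19:5845518-5846100) 500 bp outside an end. Malat1, an abundant RNA of nuclear speckles, had 5.86-fold 18 bp before its start and 4.89-fold 405 bp before it. Carmn, a lncRNA of smooth muscle and heart, had 8.63-fold at an end and a higher peak farther inside, given below. Among hosts of small nucleolar RNAs, Snhg5 had 8.64-fold, Snhg12 5.87-fold, Snhg3 5.65-fold and Snhg8 4.26-fold. Chaserr, which restrains its neighbour Chd2, had 5.41-fold with the summit 3 bp after its first base. Jpx, an activator of Xist, had 4.74-fold, and Xist itself had no peak. Morrbid, which represses Bcl2l11 in myeloid cells, had 6.91-fold at its last base. Lockd, beside Cdkn1b, had 5.58 and 5.02-fold, and Mir99ahg 4.60-fold. Most of these peaks lay below the strong threshold and near the median of all peaks at lncRNA ends.

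**Figure D5:**
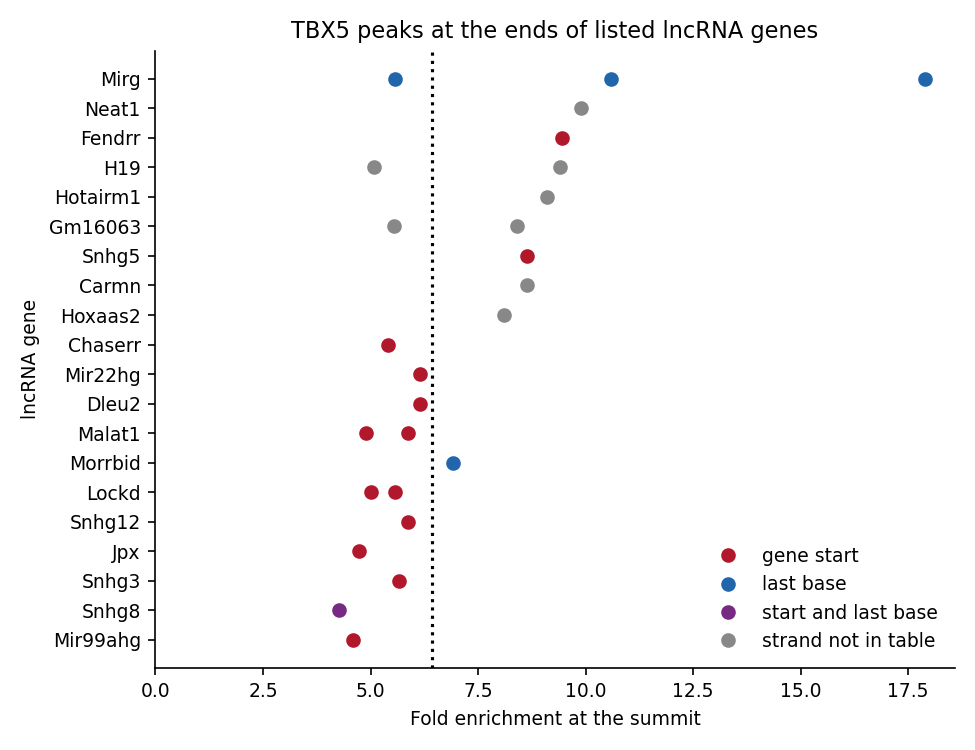
Fold enrichment of the 26 peaks at the ends of 20 listed lncRNA genes, 1 point per peak, ordered by highest −log10 q; colours give the end, and the dotted line marks the median of 6.42 of all 741 peaks. Mirg has the highest value, 17.9, and most points lie between 4 and 10.

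Listed lncRNAs with no peak at an eligible end could still hold peaks inside. Tbx3os1 had 7 peaks inside it or within 1 kb, up to 24.5-fold, and 2610307P16Rik had 22, up to 22.0-fold. Gata6os had 2, up to 39.6-fold, Pvt1 had 3, up to 25.9-fold, and Mir100hg had 6, up to 16-fold. Hotair, Hottip and Hand2os1 had none. Some listed lncRNAs with a peak at an end had higher ones inside them or within 1 kb. These reached 30.5-fold at Carmn, 29.1-fold at Hoxaas2, 17.0-fold at Morrbid and 14.0-fold at Neat1. Others, such as Mirg, Fendrr and H19, had none higher than at the end. These values, chosen after they were seen, show that the ends describe only a part of the peaks at a lncRNA gene.

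Hosts of miRNAs had a peak at an end in 7 of 53 cases (13.2%, 5.48 to 25.3), an interval that includes the 7.23% of all lncRNA genes. Besides Mirg, which overlaps 10 hairpins in the RefSeq table, they were H19 (Mir675), Mir22hg (Mir22), Dleu2 (Mir16-1), A330023F24Rik (Mir29b-2 and Mir29c), A930035F09Rik (Mir21c) and C430049B03Rik (Mir322 and Mir503). Mir22hg had 6.16-fold 304 bp before its start, and C430049B03Rik had 2 peaks.

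The protein-coding genes nearest to the 741 peaks were compared with those nearest to other intergenic peaks over 11 lists of 264 genes, with a limit of 1 Mb. A listed gene was nearest to 58 peaks at lncRNA ends (7.83%, 6.0 to 10.0) and to 7.44% of other intergenic peaks. Transcription factors of the lung mesenchyme were nearest to 20 peaks (2.70%, 1.66 to 4.14, against 2.47%). Of its 37 genes 9 had such a peak, among them Tbx3 with 5 and Meis1, a homeobox cofactor, with 4. The highest at Meis1 was 16-fold at the start of 8430419K02Rik, 2.67 kb away. Tcf21, a factor of fibroblast progenitors, had 3 peaks of at most 6.13-fold, 1.73 to 37.6 kb away. Sox11, with 16.9-fold at Gm4166, lay 273.3 kb away, and Zeb2, with 12.9-fold at Gm13479, 321.6 kb away.

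Signalling genes were nearest to few of these peaks. In the Wnt pathway 7 peaks (0.945%, against 0.642% of other intergenic peaks) lay by 6 genes, with 12.2-fold by the inhibitor Sfrp1 and 7.98-fold by Ctnnb1, which encodes beta-catenin, as the highest by −log10 q. Axin2, a negative regulator and target of the pathway, had 8.48-fold. In the BMP and TGF-beta pathway 6 peaks (0.810%, against 1.08%) included 3 by Smad5, a transducer of BMP signals, with 21.2, 5.54 and 4.88-fold, and 7.02-fold by Smad1. Hedgehog genes had 2 peaks, both by Boc, with 38.8 and 7.50-fold (0.270%, against 0.468%). FGF genes had 1, of 5.18-fold by Fgf9 (0.135%, interval 0.00342 to 0.75, against 0.624%). Genes of retinoic acid metabolism and signalling had none, which allows a share of up to 0.497%, against 0.211%. At these counts no pathway could be told apart from other intergenic peaks.

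Cell type genes gave a similar picture with 1 exception. Fibroblast and matrix genes were nearest to 9 peaks (1.21% against 0.844%), 8.01-fold at most by Col6a1 and 5.84-fold by Col1a1, with none strong. Smooth muscle genes were nearest to 4 (0.540% against 0.303%), the highest 19.6-fold by Tpm1, a tropomyosin, and 8.09-fold by Smtn. Heart genes were nearest to 3 (0.405% against 0.403%), 17.9-fold by Actc1, cardiac actin, 12.3-fold by Mef2c and 3.92-fold by Gja5. Endothelial genes had none (up to 0.497%, against 0.312%). Lung epithelium genes were nearest to 6 (0.810%, 0.298 to 1.75), above the 0.193% of other intergenic peaks, and these lay by Irx1 (17.3-fold), Foxa2 (10.8-fold), Hopx (8.19-fold), Epcam (6.04-fold), Krt8 and Grhl2 (4.24-fold each). Only 1 of the 6 was strong and the distances ran from 6.32 to 345.6 kb. With 12 counts compared side by side, no correction was made for their number.

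At the 1 kb limit on lncRNA ends, the last summits counted lay at 998, 998 and 1000 bp with 8.40, 11.7 and 5.18-fold, and the first left out at 1001, 1001 and 1003 bp with 8.32, 34.1 and 5.52-fold. At the limit on protein-coding ends, summits at 986, 995 and 999 bp with 9.27, 4.74 and 18.9-fold were left out, and those at 1015, 1035 and 1036 bp with 20.9, 5.08 and 11.3-fold were counted.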

How the data were processed

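TBX5 ChIP-seq peaks came from 1 list for 2 ChIP libraries and 1 input library, grouped by their titles. Per the submitters' processing notes, Bowtie2, SAMtools and MACS2 were used with build mm10. Their versions, their settings, any merging of libraries and whether the input served as control were not given in the sources used here. The list has no header, so units were read from the MACS2 layout and the values. The fold enrichment deposited by the authors is the ratio of ChIP signal to local background at the summit. The authors deposited the −log10 of a q-value, used for ranking, and a score, which was not analysed further. The local background may come from the input or from the ChIP libraries, and folds also depend on library depth, which is unknown, so peaks were compared only within the list.

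Summits were placed on RefSeq genes of GRCm38.p6, and start, strand and promoter sequence came from RefSeq promoter windows of 300 bases, which leave out chromosome 18. A lncRNA end was eligible when it lay outside protein-coding genes and over 1 kb from their ends. Strong peaks were the 5000 with the highest −log10 q, at least 21.3. Intervals are exact binomial, Poisson or order-statistic intervals at 95%, and overlapping lncRNA genes and neighbouring peaks are not independent. Placement was tested on simulated data. Python 3.11.15, numpy 2.4.6, pandas 2.3.3 and scipy 1.17.1 were used. The members and lists were chosen with earlier results of these data known. Named were lncRNAs at the 10 highest peaks, the 10 with most peaks, up to 20 listed lncRNAs, their nearest protein-coding genes, 2 genes per list, and peaks at the limits; other names were added after values were seen. The CpG classes, the weighting by them and the E-box comparisons were added after the data were seen.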

Additional observations from a re-analysis of the deposited data

How the results depend on the processing

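Of 72 values under alternatives, 59 stayed within the set tolerance and 13 moved. Most are counts, medians or shares, which have no direction to reverse. The log2 difference from protein-coding ends and the density ratio could have reversed and did not. The log2 difference from other intergenic peaks went from -0.04 in the main setting to 0.00 with peaks of at least 5-fold. The T-box share stayed at 7.22% with windows of 500 bp and 2 kb around lncRNA ends. It could not change there, since the same promoter windows were searched, so those values test nothing. Some values within the tolerance, whose size is not given here, still shifted. The share of CpG-poor lncRNA windows with a summit that hold CAGCTG was 41.1% (29.7 to 53.2). It was 31.6% with strong peaks only and 48.8% with the upper part of the list (50% of peaks). With windows of 500 bp and 2 kb around lncRNA ends, 449 and 1220 peaks qualified, at 4.67% and 11% of eligible lncRNA genes. With only the upper part of the list by −log10 q (50% of peaks) there were 382 peaks at 4.01% of genes, with a median of 9.60-fold, 40.6% strong and a log2 difference of 0.37 from protein-coding ends. With peaks of at least 5-fold only, the median was 7.54-fold. With the 2500 or 1000 highest −log10 q as strong, the share was 10.9% or 5.67%. The counts and shares of genes follow from the number of peaks kept or the size of the window. The medians and shares of strong peaks likewise follow from keeping higher peaks or calling fewer strong, so these values test nothing. For the log2 difference the cause was not tested. With a CpG ratio of at least 0.75 and GC of at least 55%, an alternative chosen after seeing the data, 29.8% of CpG-rich lncRNA starts had a summit. Motif windows of 50 and 200 bp around summits were not run, since promoter windows were used. No library could be left out, because the list holds no value per library. No paired analysis was possible because the list gives no value per library. The unknown depth limits what an absent peak shows.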
